A study of Drosophila melanogaster with 4 samples.

Results

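Opsins are the light-sensing receptors of photoreceptors (PRs). An opsin protein binds a retinal chromophore to form a rhodopsin, which activates a G protein of the Gq class and, through phospholipase C, opens the TRP and TRPL channels. Each unit of the fly eye (ommatidium) holds outer PRs, R1-R6, which express ninaE (Rh1), and 2 inner PRs, R7 and R8. R7 cells express the UV opsins Rh3 or Rh4, and R8 cells the blue opsin Rh5 or the green opsin Rh6, with Rh3 and Rh5 paired in "pale" and Rh4 and Rh6 in "yellow" ommatidia. Rh2 is the opsin of the ocelli, the simple eyes on top of the head, and Rh7 is known from clock neurons of the brain. The opsin genes here are these 7 genes, which were picked by name from a table of 14935 genes, and all 7 were found in it. ninaE, Rh2, Rh3 and Rh6 lie on chromosome arm 3R, Rh4 and Rh7 on 3L and Rh5 on 2L.

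RNA was sequenced from 1 library each of adult PRs, larval cone cells (CCs), pupal CCs and adult CCs, the CCs being the lens-secreting Semper cells above the PRs. Adult PRs were sorted from prosPSG-GFP retinas 1 to 2 days after eclosion as cells with RFP but no GFP, the RFP coming from a 3xP3-RFP transgene that is active in adult PRs. Larval CCs (wandering larvae of the third instar) and pupal CCs (25 h after puparium formation) were GFP-positive cells of sev-; prosPSG-GFP; TM2/TM6B animals, which form no R7 cells, and adult CCs, also of 1 to 2 days, came from yw67; sp/CyO; TM2/TM6B flies by antibody staining for Fas3 and for Futsch, a neuronal protein. The prosPSG enhancer is active in R7 cells as well as in CCs, so that the GFP-negative gate of the PR sort may have removed some R7 cells. Eyes of 45 to 75 animals were pooled per stage. Adult PRs and adult CCs thus share the stage and differ in genotype, sorting and library preparation, and these factors cannot be told apart. Pupal and larval CCs differ in stage and library alone, and adult and pupal CCs in all of them.

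The deposited values are log2 read counts per gene after TMM normalization, a scaling between libraries, and the table shows 0 for every gene whose normalized count did not exceed 1. A unit below is 1 normalized count on the linear scale. The spacing of the commonest low values put 1 read at 1.66 units in adult PRs and at 0.597 (larval), 0.634 (pupal) and 0.854 (adult) units in the CC libraries, which gives an estimated 1.60 to 3.81 M reads on genes per library. The number of mapped reads per sample that the paper states is higher than this. The gap was not resolved, so estimated reads below are approximate. The 6 PR markers checked (chp, eys, elav, futsch, Arr1 and trp) were all higher in adult PRs than in adult CCs, and the 6 CC markers (ct, sv, Crys, retinin, Fas3 and eya) were all lower, Fas3 and futsch being the genes of the proteins stained for the adult CC sort. The CC markers were not absent from adult PRs, where they summed to 5020 units, against 225902 in adult CCs, with retinin at a log2 value of 11.75. In turn, the PR markers summed to 695 units in adult CCs, against 116638 in adult PRs. The neuronal markers elav and futsch were also at log2 levels of 10.31 to 10.87 in larval and pupal CCs, against 10.91 and 12.47 in adult PRs. Pigment cell markers summed to 99769 units in adult CCs and 13530 in adult PRs, most of both from the retinol dehydrogenase gene Pdh. Hemocyte markers summed to 340 and 51.1 units, glial markers to 684 and 230, and clock genes to 9025 and 20942. The content of other cells was not tested. With 1 library per condition there is no replicate error and no test. A gene was called higher or lower where log2(value + 4) differed by 2 or more (4-fold) and the higher library had 32 units or more.

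Of the 7 opsin genes, 5 were abundant in adult PRs and nearly undetected in CCs at every stage, namely ninaE, Rh3, Rh4, Rh5 and Rh6. PRs were sampled from adults alone. For larval and pupal CCs, stage and cell type therefore cannot be told apart. Rh7 was at a low and similar level in adult PRs, pupal CCs and adult CCs, with a listing at 0 for larval CCs. Rh2 was near the detection limit throughout. Summed over the 7 genes, opsins made up 6.94% of all units in adult PRs, against at most 0.00313% in a CC library. Because these are sorted bulk libraries, fewer cells of a type and less RNA per cell cannot be told apart.

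**Figure D1:**
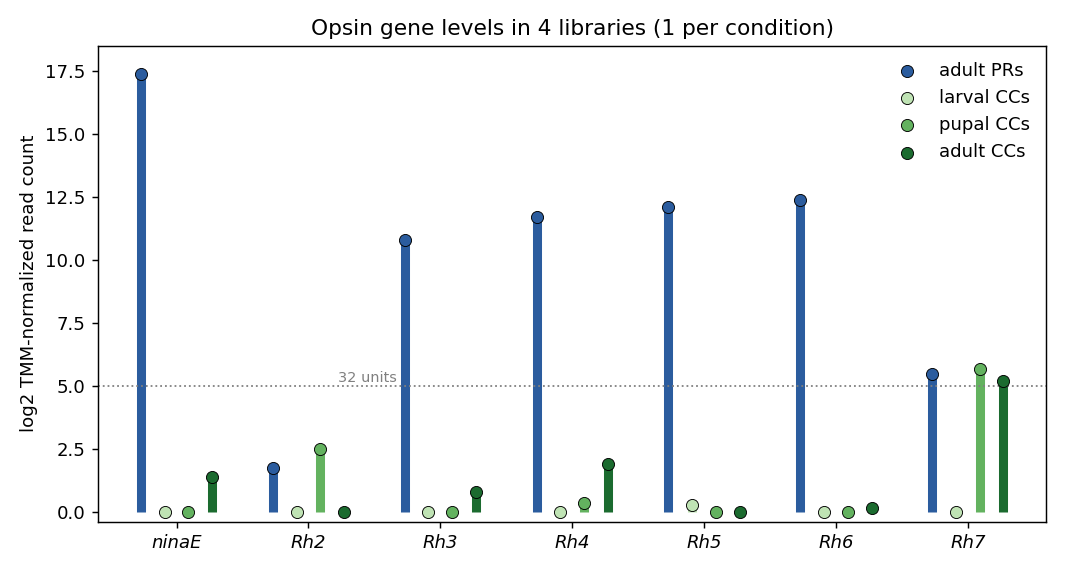
Log2 TMM-normalized read count (vertical axis) of the 7 opsin genes in adult PRs (blue) and larval, pupal and adult CCs (light to dark green), 1 point per library, with a dotted line at 32 units. The eye opsins ninaE, Rh3, Rh4, Rh5 and Rh6 stand at 10.78 to 17.37 in adult PRs and at 1.91 or less in each CC library, while Rh7 stands at 5.19 to 5.65 in adult PRs, pupal CCs and adult CCs.

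The major opsin gene ninaE (FBgn0002940) had a log2 value of 17.37 in adult PRs, 0 in both larval and pupal CCs, and 1.39 in adult CCs. On the linear scale this was 169335 units in adult PRs, 6.38% of the library and more than any other gene, and 2.61 units in adult CCs, an estimated 3.06 reads. The difference between adult PRs and adult CCs, 14.64 on the log2(value + 4) scale, was the largest of all 14935 genes.

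The R7 opsins followed the same course at lower levels. Rh3 (FBgn0003249) had a log2 value of 10.78 in adult PRs, 0 in both larval and pupal CCs, and 0.79 in adult CCs. Rh4 (FBgn0003250) had 11.72 in adult PRs, a listing at 0 for larval CCs, and values of 0.34 for pupal and 1.91 for adult CCs. The differences between adult PRs and adult CCs were 8.26 for Rh3 and 8.77 for Rh4, the seventh and the sixth largest of all genes. The CC values correspond to an estimated 2.00 reads of Rh4 in pupal CCs and, in adult CCs, 4.38 reads of Rh4 and 2.02 of Rh3.

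Rh4 shares its locus with other genes, since sina, sinah and CG13029 lie within it on the opposite strand in the reference annotation, and 0 of their exons overlap an exon of Rh4. Their log2 values were 9.61, 7.28 and 8.14 in adult PRs, against 8.81, 2.95 and 3.71 in adult CCs. Whether reads were counted by strand is not given in the sources used here, so unspliced RNA of Rh4 would not be told apart from RNA of these genes. None of the other 6 opsin genes overlaps an annotated gene.

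The R8 opsins were likewise abundant in adult PRs and at a few reads at most in CCs. Rh5 (FBgn0014019) had a log2 value of 12.08 in adult PRs, 0.26 in larval CCs, an estimated 2.00 reads, and 0 in both pupal and adult CCs. Rh6 (FBgn0019940) had 12.37 in adult PRs, 0 in both larval and pupal CCs, and 0.15 in adult CCs, an estimated 1.30 reads. Their differences between adult PRs and adult CCs were 10.08 and 10.01, the fourth and the fifth largest of all genes. Only Arr1, the arrestin gene, with 12.79, and chp, which encodes the rhabdomere protein chaoptin, with 12.45, stood between ninaE and Rh5.

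In all, 5 of the 7 opsin genes were higher in adult PRs than in adult CCs, 0 were lower and 2 were not called. Of all genes compared, 4.91% were called higher in adult PRs than in adult CCs and 9.31% lower. That share depends on the scaling, with 734 genes higher and 1390 lower as deposited, 809 and 965 with equal library totals, and 991 and 926 with median scaling, in which each library is shifted until its typical gene matches the mean of the 4 libraries. The 5 calls held under all of these. The median difference of the 7 genes was 8.77, against -0.33 for all genes compared, and median scaling put the median of all genes at 0.

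Levels of different genes can be compared only per length, and the counts were therefore divided by the exon length of the longest annotated transcript. In adult PRs ninaE then stood at 106634 units per kb, Rh6 at 3753, Rh5 at 2758, Rh4 at 2499, Rh3 at 1261, Rh7 at 11.2 and Rh2 at 2.43. With 1 PR library there is no spread against which neighbours in this order could be told apart. ninaE made up 91.2% of the summed opsin level per kb, 10.4 times the sum of the 4 inner PR opsins, and ranked first of 14177 genes with a length. The 4 inner PR opsins ranked 15th (Rh6), 28th (Rh5), 31st (Rh4) and 87th (Rh3), so that all were among the most abundant transcripts of the library.

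**Figure D2:**
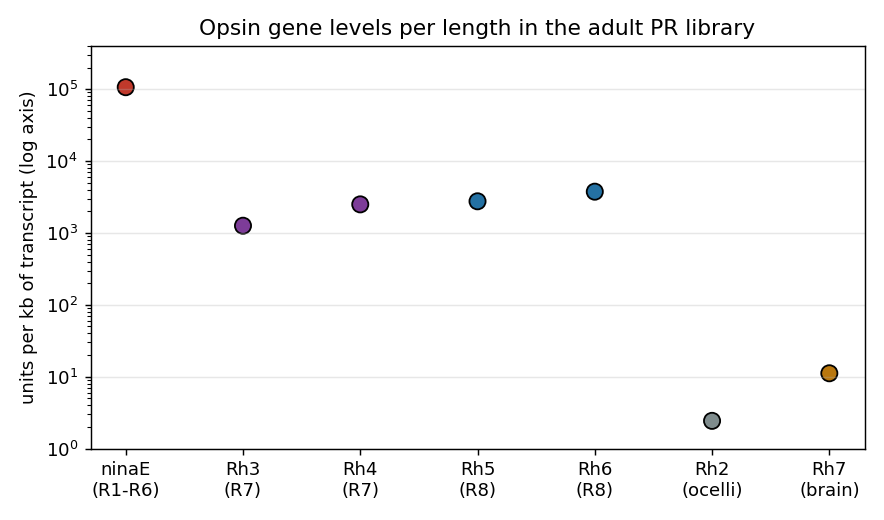
Level of each opsin gene in the adult PR library in units per kb of transcript (vertical log axis), with the cells in which the gene is known to be expressed in brackets and 1 point per gene from 1 library. ninaE at 106634 lies far above Rh3, Rh4, Rh5 and Rh6 (1261 to 3753), and Rh2 and Rh7 lie at 2.43 and 11.2.

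Among the inner PR opsins, the R7 pair, Rh3 and Rh4, took 36.6% of the summed level per kb and the R8 pair, Rh5 and Rh6, was 1.73 times as high. Within R7, Rh4 made up 66.5% of the pair, a ratio of Rh4 to Rh3 of 1.98. Within R8, Rh6 made up 57.6% of the pair, a ratio of Rh6 to Rh5 of 1.36. In both pairs the opsin of the yellow ommatidia was the higher one in this library. Numbers of cells were not measured, and with 1 PR library neither order could be tested. What the GFP-negative gate described above did to the R7 share was not tested. The gene pros, whose enhancer drove that GFP, had a log2 value of 5.05 in the PR library, against 4.28 in adult and 10.43 in larval CCs. For sens, a gene of R8 development, the value was 1.73 in the PR library and 3.47 in adult CCs. Neither gene was called between adult PRs and adult CCs, and the content of R7 and R8 cells was not tested.

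Rh2 (FBgn0003248) had a log2 value of 1.73 in adult PRs and 0 in larval CCs, with 2.49 for pupal and 0 for adult CCs. These are 3.32 units in adult PRs and 5.61 in pupal CCs, an estimated 2.00 and 8.86 reads. The difference between adult PRs and adult CCs was 0.87, and Rh2 was called in none of the 3 comparisons. Rh2 was under the floor of 32 units in every library, and with 1 library per condition its differences could not be tested. The tissue dissected was the eye, not the ocelli.

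Rh7 (FBgn0036260) did not follow the course of ninaE, Rh3, Rh4, Rh5 and Rh6. Its log2 value was 5.49 in adult PRs and 0 in larval CCs, with 5.65 for pupal and 5.19 for adult CCs, which is 44.8, 50.2 and 36.4 units in the 3 libraries where it was detected and an estimated 27.0, 79.3 and 42.6 reads. The difference between adult PRs and adult CCs was 0.27, under the 4-fold rule, and 0.74 with median scaling. Per kb, Rh3, the lowest of the 5 eye opsins above, was 113 times as high as Rh7 in adult PRs. This ratio depends on the length used. The longest transcript of Rh7 has 4014 bases, of which 1449 are coding, against 1391 and 1149 for Rh3. By coding length or with no length (1754 units of Rh3 against 44.8 of Rh7) the ratio is smaller.

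Rh7 was the only opsin gene called higher in pupal than in larval CCs, with 50.2 units in pupal CCs and a listing at 0 in larval CCs, which at the estimated size of a read allows at most 1 read. The other 6 were not called and 0 were lower, while 4.64% of all genes were called higher at this step and 1.07% lower. With a floor 8 times as high, Rh7 was not called. Between adult and pupal CCs 0 of the 7 opsin genes were called, against 6.47% of all genes higher and 6.11% lower, and the difference of Rh7 was -0.43. The split of all genes at this step was 966 higher and 913 lower as deposited, and 572 and 1565 with equal library totals, under which the difference of Rh7 was -1.18 and still not called.

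Some genes of the marker lists changed at the same step as Rh7. Of 6 hemocyte markers, 2 passed the rule upward in pupal against larval CCs, Pxn with 4.52 and Hml with 4.06, and 0 passed downward. The sum of the list was 992 units in pupal and 943 in larval CCs. Most of both sums came from Ppn, at log2 values of 9.31 in pupal and 9.84 in larval CCs, so the sum does not show the rise of Pxn and Hml. He was listed at 0 in every library. Of 6 glial markers, 2 were higher, wrapper with 3.05 and Gat with 2.83, and the list summed to 412 units in pupal and 247 in larval CCs. The paper reports expression of repo, wrapper and loco in CCs themselves, so the glial list does not mark other cells alone. Of 6 pigment cell markers, 1 was higher, st with a difference of 3.72, and the list summed to 520 units in pupal and 168 in larval CCs. Of the 6 PR markers, 1 was higher, eys with 3.78, with sums of 4019 units in pupal and 3040 in larval CCs, and of 23 phototransduction genes 3 were higher, ninaC with 4.55, Ggamma30A with 4.32 and rdgC with 2.11. None of the 6 CC markers was called, and they summed to 5479 units in pupal and 2559 in larval CCs. Of 7 clock genes, 2 passed upward in pupal against larval CCs and 6 at the next step, in adult against pupal CCs, and the list summed to 20942 units in adult PRs and 131, 203 and 9025 units in larval, pupal and adult CCs. Pdf, the neuropeptide gene that defines the main clock neurons, had 0 in adult PRs, larval CCs and pupal CCs and a log2 value of 0.77 in adult CCs. The part of cells other than CCs in the Rh7 values was not tested.

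By the annotation in the deposited table, 8 genes carry the molecular function term for photoreceptor activity, the 7 opsin genes and cry, the gene of the blue-light receptor cryptochrome. The log2 value of cry was 7.60 in adult PRs and 0 in larval CCs, with 1.66 for pupal and 8.78 for adult CCs. It was thus called higher in adult than in pupal CCs, a comparison in which only Rh7 of the opsins had enough units to be called.

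Most genes through which opsins signal were higher in adult PRs too. Of 23 phototransduction genes, 20 were higher in adult PRs than in adult CCs, 1 was lower and 2 were not called, with a median of 5.92. Over all genes, 4.91% were called higher and 9.31% lower in this comparison. The largest differences were those of Arr1, which encodes an arrestin that binds activated rhodopsin, with 12.79, of Calx, a sodium-calcium exchanger gene, with 7.98, of inaF-B, required for the TRP channel, with 7.66, and of Arr2, the second arrestin, with 7.48. The receptor kinase genes Gprk2 and Gprk1 and the lipid phosphatase gene laza did not follow this, with differences of -2.24 (lower), -0.28 and 0.14 (neither called). Of these genes 21 were at 32 units or more in adult CCs, among them norpA, the phospholipase C gene, at a log2 value of 10.52, and none was listed at 0 there.

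Of 11 genes of rhodopsin maturation and chromophore supply, 5 were higher in adult PRs than in adult CCs, 1 was lower and 5 were not called, with a median of 1.98. The shares over all genes were 4.91% higher and 9.31% lower. Those higher were xport (listed as CG4468), a chaperone gene for TRP and Rh1, with 6.62, ninaA, the Rh1 chaperone, with 6.10, ninaG, an oxidoreductase gene of chromophore synthesis, with 4.84, pinta, a retinoid-binding protein gene, with 3.42, and santa-maria, a scavenger receptor gene of carotenoid uptake, with 2.59. Pdh, a retinol dehydrogenase gene of pigment cells, was lower, at 13.48 in adult PRs and 16.53 in adult CCs. The smallest absolute differences were those of Crag, a gene of rhodopsin trafficking, with -1.36, and ninaB, the carotenoid oxygenase gene, with -1.50.

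Of 15 genes that control opsin expression or the choice between opsins, 4 were higher in adult PRs than in adult CCs, 3 were lower and 8 were not called, with a median of -0.28. Among all genes compared, including those under the floor, 4.91% were higher and 9.31% lower. The homeodomain genes oc (Otd) and Pph13, both activators of opsin genes, differed by 7.36 and 5.57, dve, which encodes a repressor of Rh3, by 3.56, and salr, one of the spalt genes of R7 and R8 fate, by 3.41. The genes lower in adult PRs were hth, a gene of the dorsal rim, with -3.46, mirr, a gene of the dorsal eye, with -2.50, and melt, which acts in pale R8 cells, with -2.14. The genes of the yellow choice, ss in R7 and wts in R8, were not called, with -0.58 and -1.10. The smallest differences were 0.09 for the Pax6 gene toy and -0.27 for salm.

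**Figure D3:**
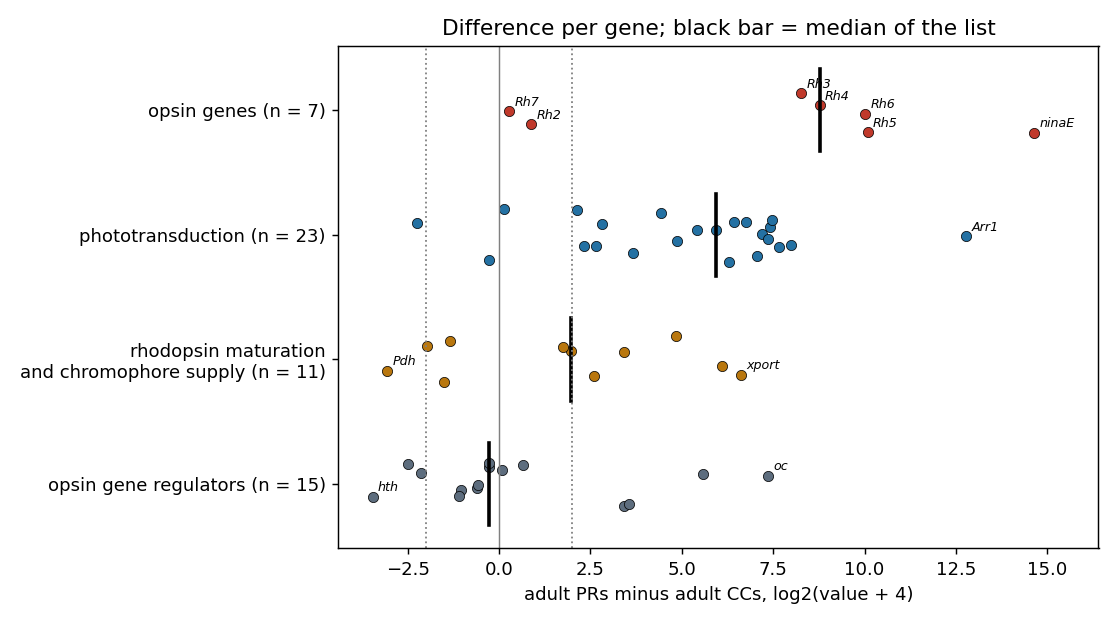
Difference between adult PRs and adult CCs on the log2(value + 4) scale (horizontal axis) for each opsin gene and each gene of 3 lists, 1 point per gene, with dotted lines at -2 and 2 and a black bar at the list's median. Opsin genes split into 5 at 8.26 to 14.64 and 2 near 0, and the medians are 8.77, 5.92, 1.98 and -0.28 from top to bottom.

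Genes with the most similar course were looked for by the Euclidean distance between profiles of log2(value + 4) over the 4 libraries, each centred on its own mean, among 7462 genes at 32 units or more in any library. The 5 nearest to ninaE were Arr1 (distance 1.86), chp (2.34), Rh6 (4.24), Rh5 (4.55) and Rh4 (5.08). Rh5 and Rh6 were each other's nearest gene, at a distance of 0.58, and so were Rh3 and Rh4, at 0.67. These genes were under 4 units in every CC library, so the distances between them rest mainly on their levels in adult PRs. After the other opsins, the genes nearest to Rh3 were CG42508 and CG4468 (Xport-B and Xport-A, both at 1.23, with overlapping transcripts and identical values in all 4 libraries, so that they cannot be told apart), oc (1.30) and inaF-C (1.32). Slob, which encodes a binding protein of the Slowpoke potassium channel, came next to Rh4, at 1.49, followed by Calx. Slob (2.20) and chp (2.22) came next to Rh5, and chp (1.97) and inaF-D (2.15) next to Rh6.

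The 5 nearest to Rh7 were different from all of these. They were axo, a neurexin-like gene, at 0.31, Oatp58Dc, an anion transporter gene, at 0.53, the small GTPase gene Rgk2 at 0.60, cngl, a gene of the cyclic nucleotide-gated channel family, at 0.60, and CG18368 at 0.65. All 5 were lower in larval CCs than in the other 3 libraries, which follows from their choice by likeness to the Rh7 profile. With 4 libraries a profile has few points, and the distances describe these libraries only.

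**Figure D4:**
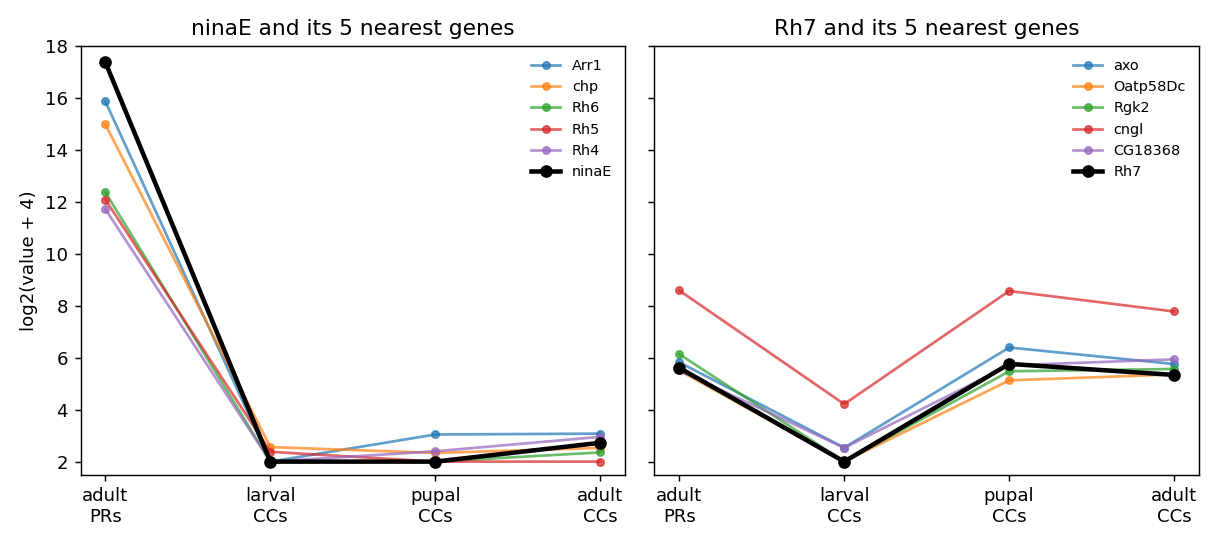
Level on the log2(value + 4) scale (vertical axis) in adult PRs and larval, pupal and adult CCs for ninaE (left, black) and Rh7 (right, black) with their 5 nearest genes, 1 point per library, lines joining the points of a gene only to guide the eye. The genes on the left are high in adult PRs alone, and those on the right are lower in larval CCs than in the other 3 libraries. Both follow from the choice of genes by profile.

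Few genes of any kind shared the course of the eye opsins. Of the 386 genes with a log2 value of 10 or more in adult PRs, 6 were under 4 units in all 3 CC libraries, and these were ninaE, Rh3, Rh4, Rh5, Rh6 and chp. The course of Rh7 was rare as well, with 15 genes listed at 0 in larval CCs and at 32 units or more in each of the other libraries. These patterns were set after the opsin values had been seen, and the counts are descriptions.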

How the data were processed

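Sorted cells of the fly eye were sequenced in 4 libraries, 1 per condition, after amplification of the RNA. The authors aligned reads to dm3 (TopHat2 2.0 with Bowtie 1.0, by the submitters' notes on processing), obtained counts per gene, applied TMM together with whole-animal data and deposited log2 values, not divided by length. The table has 14959 entries, of which 24 duplicated a gene and held no value above 0, and these were dropped. The size of 1 read was estimated from the spacing of the 10 commonest values below 12 units. Since 38.3% to 65.0% of values below 30 units lay within 0.02 of a whole multiple, reads were not recovered, no count test was run, and intervals are not given. Lengths and gene overlaps came from Ensembl release 115 (BDGP 6), another build, so no coordinates are given.

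The members and gene lists were chosen with earlier results of these data known. Named genes were the 7 opsins, the 5 nearest genes of each opsin at 32 units or more, and the list members with the largest and smallest differences. Genes named outside this rule (cry, those inside Rh4, other called or cell-fate members of the lists, check markers, and genes counted by pattern) were chosen after their values were seen. Alternatives were added constants of 1 and 16 units, 2 other scalings, no floor or one 8 times as high, an 8-fold rule, and coding length or no length. Python 3.11.15, numpy 2.4.6, pandas 2.3.3 and matplotlib 3.10.9 were used.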

Additional observations from a re-analysis of the deposited data

How the results depend on the processing

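Under all 7 alternatives, 5 opsin genes were higher in adult PRs than in adult CCs and 0 were called between adult and pupal CCs. Wherever the floor of 32 units applied, only Rh7 could have been called between adult and pupal CCs. The call of Rh7 between pupal and larval CCs was lost with a floor 8 times as high, which left a count of 0 in place of 1, because Rh7 had fewer units than that. No difference of a called opsin gene changed sign. The median difference of the 7 genes between adult PRs and adult CCs, 8.77, was 9.47 with 1 unit added, 7.42 with 16 units added, 8.78 with equal library totals, 9.15 with median scaling, and 9.39 over the 6 genes at 32 units or more in either library.
With coding length and with no length, the share of ninaE in the opsin level of adult PRs was 92.0% in both cases, that of the R7 opsins among the inner PR opsins 34.2% and 34.8%, that of Rh4 within the R7 pair 66.1% and 65.8%, and that of Rh6 within the R8 pair 56.2% and 54.9%. Without the 10 most abundant other genes in the total, opsins took 8.21% of the adult PR units. No paired analysis was possible because each condition has 1 library. The low CC values of the eye opsins rest on an estimated 4.38 reads or fewer, so their order among themselves is not resolved at this depth.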

Other observations

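A wider set of genes shared the course of the eye opsins. In all, 39 genes were at 32 units or more in adult PRs and under 4 units in all 3 CC libraries, and 5 of them were opsin genes. After chp and the opsins, those with the most reads in adult PRs, not divided by length, were oc at a log2 level of 9.78, msta at 9.22, CG9686 at 7.56 and Gr97a, annotated as a gustatory receptor gene, at 7.54.

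The 15 genes with the course of Rh7 differed among themselves between the adult libraries. The clock gene Clk had log2 values of 6.22 in adult PRs, against 9.63 in adult CCs, and the cuticle protein gene Cpr49Ae 10.16 in adult PRs, against 14.23 in adult CCs. Rgk2 had 6.05 in adult PRs, against 5.44 in adult CCs, and Tsf1, a transferrin gene, 6.94 in adult PRs, against 6.77 in adult CCs, so that neither was called, like Rh7.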
